A study of Mus musculus with 71 samples.

Results

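Cortical layer identity transcription factors are proteins that set, and in the adult brain still mark, the projection neuron classes stacked in the layers of the cerebral cortex. The 9 genes described here are Cux1, Cux2, Rorb, Fezf2, Bcl11b, Etv1, Tle4, Foxp2 and Tbr1, chosen by name from 55416 genes in the count table, and each was measured in all 71 libraries. The libraries are bulk RNA sequencing of brain tissue from C57BL/6J mice that had a burn, a skin excision or a sham procedure, made to look for changes in brain transcripts after a non-severe burn. Batches 1 and 2 hold 28 frontal cortex libraries (10 burn, 10 excision, 8 sham) and 29 hippocampus libraries (10 burn, 10 excision, 9 sham). Batch 3 holds all 14 piriform cortex libraries (5 burn, 4 excision, 5 sham).

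The burn was a full-thickness injury made with a heated brass rod on the right dorsal flank, and the excision removed full-thickness skin from the back. Sham mice were shaved on the back and not injured. All groups had isoflurane anaesthesia and buprenorphine, and all drank paracetamol in their water for some days afterwards. Burn and excision sites were also scrubbed with chlorhexidine, a step the labels do not give for sham mice, and the burn lay on another part of the body than the other procedures. The age and sex of the mice, the time between injury and collection, and whether an animal gave more than 1 region are not stated in the labels used here. The labels call the material mixed brain tissue, so in these bulk samples fewer cells of a type and less RNA per cell cannot be told apart.

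In the mouse neocortex, neurons are generated from deep to upper layers, and a small set of mutually opposing factors fixes which targets their axons reach. Cux1 and Cux2, a pair of homeodomain proteins, mark neurons of layers 2 to 4 that project within the cortex, and the nuclear receptor Rorb marks layer 4. The zinc-finger protein Fezf2 directs the layer 5 fate that sends axons to brainstem and spinal cord, in part through Bcl11b (also called Ctip2), and the ETS factor Etv1 (Er81) also marks layer 5. Tbr1, a T-box factor, holds corticothalamic neurons of layer 6 apart from the Fezf2 fate, while the corepressor Tle4 and the forkhead protein Foxp2 are further layer 6 markers. None of the 9 is restricted to the neocortex. Bcl11b and Foxp2 are also made by projection neurons of the striatum, Bcl11b by hippocampal granule and pyramidal cells, and Tbr1 and Etv1 by neurons of the olfactory bulb.

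On GRCm38, Cux1 lies at chr5:136248135-136567490 and Cux2 at chr5:121856366-122050102, both on the minus strand. Rorb lies at chr19:18930605-19111196 and Tle4 at chr19:14448150-14598051, also on the minus strand, as do Fezf2 at chr14:12342094-12348189 and Bcl11b at chr12:107910403-108003602. Etv1 at chr12:38779380-38870484, Foxp2 at chr6:14901349-15441977 and Tbr1 at chr2:61802930-61814114 are on the plus strand. Promoter sequences were found for 8 of the 9 genes in a RefSeq table (GRCm38.p6), with 12 annotated start sites among them. The 250 bases before a start site are shown for Cux2 and Rorb, which were higher in piriform cortex than in both other regions, and for Bcl11b and Tle4, which rose and fell together across frontal cortex libraries. Capitals mark a CCAAT box, the 5-letter sequence that CUX proteins can bind, read on either strand, so that it appears as ATTGG when it lies on the other strand. Where the table has several start sites (Cux2, Rorb and Tle4), the first is shown.
Cux2, chr5:122049852-122050101, minus strand: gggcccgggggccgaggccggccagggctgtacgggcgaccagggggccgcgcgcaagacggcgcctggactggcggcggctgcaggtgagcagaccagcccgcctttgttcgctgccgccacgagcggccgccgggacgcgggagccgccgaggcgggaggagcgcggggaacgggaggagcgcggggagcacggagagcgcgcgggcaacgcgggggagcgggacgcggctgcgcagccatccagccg
Rorb, chr19:19111197-19111446, minus strand: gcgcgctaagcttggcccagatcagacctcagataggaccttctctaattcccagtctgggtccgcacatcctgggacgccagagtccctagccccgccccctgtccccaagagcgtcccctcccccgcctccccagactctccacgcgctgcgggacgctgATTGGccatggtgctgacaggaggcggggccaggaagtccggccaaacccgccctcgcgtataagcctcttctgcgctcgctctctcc
Bcl11b, chr12:108003415-108003664, minus strand: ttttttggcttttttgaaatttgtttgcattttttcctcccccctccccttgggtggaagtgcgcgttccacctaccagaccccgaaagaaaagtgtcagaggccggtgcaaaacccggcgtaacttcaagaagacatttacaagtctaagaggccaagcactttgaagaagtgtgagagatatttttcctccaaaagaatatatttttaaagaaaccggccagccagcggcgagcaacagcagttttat
Tle4, chr19:14598184-14598433, minus strand: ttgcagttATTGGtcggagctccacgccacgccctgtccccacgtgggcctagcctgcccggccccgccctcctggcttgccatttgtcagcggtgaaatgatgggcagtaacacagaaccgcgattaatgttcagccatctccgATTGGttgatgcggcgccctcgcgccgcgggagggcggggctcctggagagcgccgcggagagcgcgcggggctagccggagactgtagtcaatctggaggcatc

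The CCAAT box occurred in 2 of the 12 promoters, those shown for Rorb (1 copy) and Tle4 (2 copies), against 33.8% of 32851 promoters of the same length in the table. A forkhead core, TGTTTAC, occurred in 1 of the 12, a promoter of Cux1, against 3.17% of all promoters. The ROR core AGGTCA and the T-box core AGGTGTGA were found in 0 of the 12, against 14% and 1.12% of all promoters. All motifs were searched on both strands, and a match or its absence describes these letters in this window only.

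Sequencing depth was 6.65 M to 87.8 M counts per library (M stands for mega) with a median of 57.0 M, and 4 hippocampus libraries of batch 1 were under 10 M. Markers of cell types were checked first, and no list was made for piriform cortex itself. Prox1, a marker of dentate granule cells, had a median of 7.46 counts per M counts of the library (CPM) in frontal cortex, 7.18 in piriform cortex and 50.4 in hippocampus. Of 6 dentate markers, 5 were lower in both cortical regions than in hippocampus. Pdzd2 went the other way, with medians of 82.6 CPM in frontal cortex, 68.5 in piriform cortex and 39.1 in hippocampus. By the edgeR test described below, 2 of 7 cortical glutamatergic markers were higher and 3 lower in frontal cortex than in hippocampus. In piriform cortex 4 were higher and 2 lower than in hippocampus. Of 8 pyramidal cell markers (CA1 to CA3), 8 were lower in frontal cortex and 7 in piriform cortex. That test called 62% and 63% of all genes in these comparisons. A single piriform library, sham replicate 1, carried 292 CPM over 6 dentate markers, against 70.5 to 107 CPM in the other 13 piriform libraries. Pdzd2 alone ran from 52.8 to 94.9 CPM over the piriform libraries. Frontal cortex libraries held markers of neighbouring structures in very unequal amounts: the sum of 10 striatal projection neuron markers ran from 260 to 2211 CPM (median 784), and the sum of 5 olfactory bulb markers from 48.3 to 757 CPM (median 209). In hippocampus the same sums had medians of 186 and 57.2 CPM. Piriform cortex had 252 to 2319 CPM of striatal markers and 42.5 to 101 CPM of bulb markers. Outside frontal cortex most of the bulb sum was Reln, at 34.1 to 84.5 CPM in piriform cortex and a median of 46.9 CPM in hippocampus. The other 4 bulb markers in piriform cortex were Cdhr1 (0.875 to 17.2 CPM), Doc2g (1.52 to 3.21), Th (0.826 to 3.04) and Eomes (0 to 0.229). Titles of 4 libraries name another treatment than their treatment field, which was used here, and all piriform titles name the frontal cortex, where the tissue field names the piriform cortex.

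**Figure D1:**
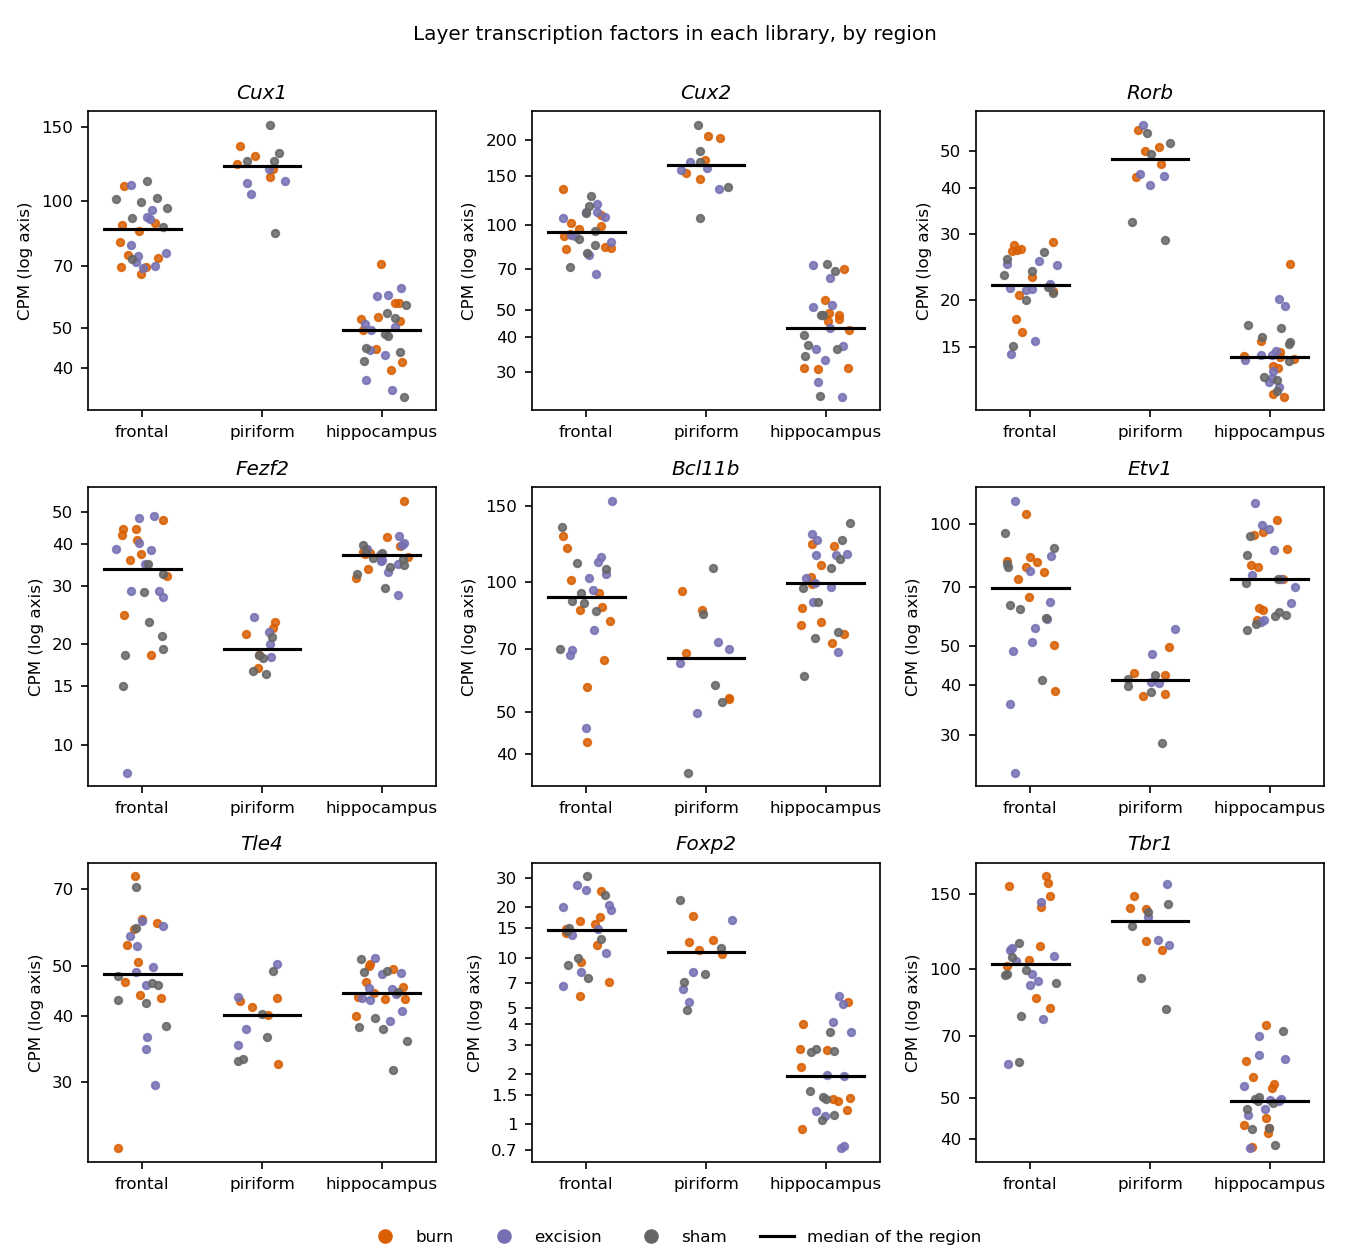
CPM of each gene (log axis, 1 panel per gene) in every library of frontal cortex (28), piriform cortex (14) and hippocampus (29), coloured by treatment, with a bar at the region's median. Cux1, Cux2 and Rorb sit highest in piriform cortex, Fezf2 lowest there, and Foxp2 lowest in hippocampus, with a median of 1.96 CPM.

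The upper-layer factors formed a gradient across the regions. Cux2 ran from 67.1 to 134 CPM in frontal cortex (median 94.3), from 106 to 227 CPM in piriform cortex (median 163) and from 24.6 to 73.0 CPM in hippocampus (median 43.2). Cux1 ran from 67.2 to 112 CPM (median 86.1), from 84.1 to 152 CPM (median 121) and from 34.2 to 70.9 CPM (median 49.4) in the same order of regions. The lowest piriform value of both genes belonged to sham replicate 1, the library with dentate transcripts. Rorb had 14.3 to 28.6 CPM in frontal cortex (median 21.9), 29.0 to 58.9 CPM in piriform cortex (median 47.8) and 11.1 to 25.1 CPM in hippocampus (median 14.1). Every piriform library therefore exceeded every frontal library for Rorb, while for Cux1 and Cux2 these ranges overlapped.

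The layer 5 factors had their lowest medians in piriform cortex. Fezf2 ran from 8.24 to 48.5 CPM in frontal cortex (median 33.7), from 16.3 to 24.2 CPM in piriform cortex (median 19.4) and from 28.1 to 54.1 CPM in hippocampus (median 37.2). All 14 piriform libraries lay below all 29 hippocampus libraries. Bcl11b had medians of 92.1, 66.7 and 99.1 CPM, with ranges of 42.5 to 154 CPM in frontal cortex, 36.2 to 108 CPM in piriform cortex and 60.6 to 137 CPM in hippocampus. Etv1 had 24.3 to 115 CPM in frontal cortex (median 69.7), 28.7 to 55.0 CPM in piriform cortex (median 41.1) and 54.8 to 113 CPM in hippocampus (median 73.1). For Bcl11b and Etv1 the ranges of all 3 regions overlapped, though those of Etv1 in piriform cortex and hippocampus crossed only at their edges.

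The layer 6 factors did not share a pattern. Tbr1 had 60.1 to 165 CPM in frontal cortex (median 103), 80.8 to 158 CPM in piriform cortex (median 130) and 38.1 to 73.9 CPM in hippocampus (median 49.2). Foxp2 had 5.87 to 30.7 CPM in frontal cortex (median 14.6), 4.87 to 22.3 CPM in piriform cortex (median 10.9) and 0.718 to 5.90 CPM in hippocampus, where the counts per library ran from 5 to 255. Tle4 was nearly level, with medians of 48.2 CPM (22.4 to 74.1) in frontal cortex, 40.3 CPM (32.4 to 50.4) in piriform cortex and 44.3 CPM (31.6 to 51.8) in hippocampus. Tbr1 ranges of piriform cortex and hippocampus did not overlap, and those of frontal cortex and hippocampus crossed at their edges. Foxp2 ranges of both cortical regions crossed the hippocampal range only at its edge, whereas the ranges of Tle4 overlapped throughout.

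Levels of different genes are comparable only per length, so CPM was divided by the summed exon length in kb. On that scale Tbr1 led in frontal cortex with a median of 18.8 CPM per kb, followed by Bcl11b (11.4), Fezf2 (11.1), Cux2 (9.35) and Tle4 (8.45), whose library ranges all overlapped. Etv1 (5.24), Cux1 (4.30), Rorb (1.98) and Foxp2 (0.891) completed the order, and no library's Rorb value reached the lowest Cux1 value of 3.36 CPM per kb. In piriform cortex Tbr1 (23.6) and Cux2 (16.2) led and Etv1 (3.09) stood next to last. In hippocampus Bcl11b and Fezf2 (both 12.2) led, and Tbr1 had 8.97 CPM per kb.

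Frontal cortex was compared with hippocampus over all libraries in an edgeR quasi-likelihood fit of 21788 genes, where a gene was called at a Benjamini-Hochberg adjusted p under 0.05. Of the 9 factors, 6 were higher in frontal cortex and 1 was lower, on a background in which 62% of all genes tested were called (31.6% higher and 30.4% lower). Foxp2 had the widest difference, 2.73 ± 0.20 (log2 fold change ± SE, adjusted p = 4.13e-19). Cux2 was higher by 1.14 ± 0.09 (adjusted p = 4.05e-18), Tbr1 by 1.04 ± 0.07 (6.18e-21), Cux1 by 0.81 ± 0.06 (7.99e-20) and Rorb by 0.63 ± 0.07 (4.35e-12). Fezf2 was lower, at -0.28 ± 0.08 (adjusted p = 0.00337). Bcl11b (-0.09 ± 0.10, adjusted p = 0.449) and Etv1 (-0.11 ± 0.09, adjusted p = 0.283) did not pass. Tle4 stood at the threshold, at 0.15 ± 0.07 (adjusted p = 0.0498), and missed it without the libraries whose labels disagree (adjusted p = 0.0710). Over all alternatives its adjusted p ran from 0.00806 to 0.995.

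The 2 batches that hold both regions gave the same direction for the 5 genes with wide differences. Foxp2 differed by 3.07 in batch 1 and 2.36 in batch 2, Cux2 by 1.41 and 0.85, Tbr1 by 1.30 and 0.77, Cux1 by 0.74 and 0.86 and Rorb by 0.82 and 0.41, all with adjusted p under 0.05. Fezf2 was not called in batch 1 (-0.10, adjusted p = 0.384) and was called in batch 2 (-0.48, adjusted p = 0.0112). In sham libraries alone Fezf2 differed by -0.65 (adjusted p = 0.000108). Tle4 was higher in batch 1 alone (0.29, adjusted p = 0.00806) and at -0.00087 in batch 2 (adjusted p = 0.995). All 5 bulb markers (median log2 fold change 3.48) and all 10 striatal markers (median 2.30) were also called higher in frontal cortex than in hippocampus. Their part in these differences was not tested.

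**Figure D2:**
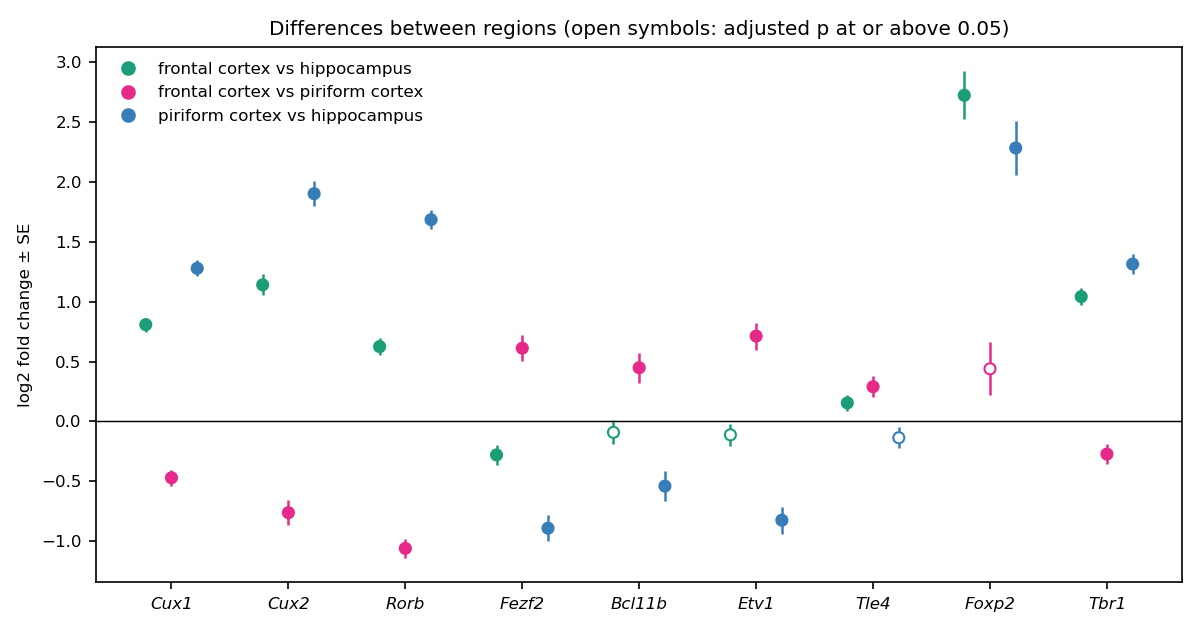
Log2 fold change (vertical axis, points with SE bars) of each gene for frontal cortex against hippocampus, frontal against piriform cortex and piriform cortex against hippocampus, from the fit over 71 libraries. Open symbols did not pass an adjusted p of 0.05. Cux1, Cux2, Rorb and Tbr1 lie above 0 against hippocampus and below 0 for frontal against piriform cortex, while Fezf2 and Etv1 lie above 0 for frontal against piriform cortex.

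Between the cortical regions the called factors went both ways. Frontal cortex was higher than piriform cortex for 4 of them and lower for 4, where 38% of all genes were called (18.4% higher and 19.5% lower). The layer 5 genes were higher in frontal cortex: Etv1 by 0.71 ± 0.11 (adjusted p = 8.42e-07), Fezf2 by 0.61 ± 0.11 (5.00e-06) and Bcl11b by 0.45 ± 0.13 (0.00348). Tle4 was higher by 0.29 ± 0.09 (adjusted p = 0.00579). The upper-layer genes were lower in frontal cortex: Rorb at -1.06 ± 0.08 (adjusted p = 2.31e-16), Cux2 at -0.76 ± 0.10 (2.95e-08) and Cux1 at -0.47 ± 0.07 (1.33e-07). Of the other layer 6 genes, Tbr1 was lower, at -0.27 ± 0.08 (adjusted p = 0.00755), and Foxp2 did not pass (0.44 ± 0.22, adjusted p = 0.11). Rorb was the only factor with no overlap between the 28 frontal and 14 piriform libraries, a separation that 0.138% of all genes showed in that direction.

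With sham libraries alone, 8 frontal against 5 piriform, 3 of the 8 calls remained: Rorb, Cux2 and Etv1, where 12.3% of all genes were called. The values of the other 5 stayed in the same direction, with Fezf2 at 0.32 (adjusted p = 0.129) and Cux1 at -0.36 (adjusted p = 0.0554), the highest adjusted p of Cux1 over its alternatives, where the lowest was 5.27e-10. Piriform libraries were all made in batch 3 and frontal libraries in batches 1 and 2, so region and batch cannot be told apart here or in the comparison of piriform cortex with hippocampus. Markers of neighbouring structures differed in the same contrast. All 5 olfactory bulb markers were called higher in frontal than in piriform cortex (median log2 fold change 3.41). Of 5 markers of the claustrum and endopiriform nucleus, 1 was called higher and 4 lower (median -0.97), with sums of 140 to 368 CPM in frontal and 223 to 372 CPM in piriform cortex. The part of these transcripts in the differences between the cortical regions was not tested.

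Piriform cortex differed from hippocampus in 8 of the 9 factors, 5 higher and 3 lower, on a background of 63% of genes called (32% higher and 31.1% lower). Foxp2 was higher by 2.29 ± 0.22 (adjusted p = 5.91e-14), Cux2 by 1.90 ± 0.10 (2.17e-25), Rorb by 1.69 ± 0.08 (5.48e-28), Tbr1 by 1.32 ± 0.08 (2.18e-22) and Cux1 by 1.28 ± 0.07 (6.47e-26). Fezf2 was lower at -0.89 ± 0.11 (adjusted p = 8.82e-11), Etv1 at -0.83 ± 0.11 (4.09e-09) and Bcl11b at -0.54 ± 0.13 (0.000178). Tle4 did not pass (-0.14 ± 0.09, adjusted p = 0.164), although without a scaling factor, from library totals alone, it did (-0.24, adjusted p = 0.0151, the lowest over alternatives that reached 0.563). The libraries of the 2 regions did not overlap for Cux1, Cux2, Rorb and Tbr1, all higher in piriform cortex, or for Fezf2, lower there. Across all genes 2.09% separated upward and 6.87% downward. All 10 striatal markers (median log2 fold change 2.10) and 4 of 5 claustrum and endopiriform markers (median over the 5, 0.64) were also called higher in piriform cortex, and their part in these differences was not tested. Counts of called factors stayed at 8 without the piriform library that held dentate transcripts. Bcl11b was not called in sham libraries alone (-0.50, adjusted p = 0.0767, the highest over its alternatives).

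Other genes of layer identity gave a wider frame. Among 25 further layer transcription factors, 9 were higher and 13 lower in frontal cortex than in hippocampus, with a median log2 fold change of -0.13, against 0.01 over all genes. Higher genes included Mef2c (1.45 ± 0.08) and the upper-layer POU factor Pou3f2 (1.30 ± 0.09). Lower genes included the basic helix-loop-helix factors Bhlhe22 (-1.41 ± 0.08), Neurod1 (-1.13 ± 0.08) and Neurod2 (-1.07 ± 0.06). Frontal against piriform cortex gave 5 higher and 12 lower, with the orphan receptor Nr4a2 at -1.77 ± 0.12 and Rora, a relative of Rorb, at -0.80 ± 0.11. Piriform cortex against hippocampus gave 12 higher and 12 lower, with Mef2c at 1.57 ± 0.10 and Neurod6 at -1.44 ± 0.10. Eomes, a T-box gene of olfactory bulb projection neurons, ran from 0.0164 to 73.1 CPM in frontal cortex (median 14.3) and from 0 to 0.229 CPM in piriform cortex, where 3 libraries had none.

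Among 18 layer-enriched effector genes, 10 were higher and 4 lower in frontal cortex than in hippocampus (median log2 fold change 0.45). The layer 6 synaptotagmin Syt6 differed by 3.39 ± 0.19, Lamp5 by 1.65 ± 0.12 and Deptor, an mTOR inhibitor of layer 5 neurons, by 1.28 ± 0.09. Scnn1a, a channel subunit used as a layer 4 marker, was lower at -2.02 ± 0.08, and Crym, a thyroid hormone binding protein, at -1.27 ± 0.12. Frontal against piriform cortex gave 6 higher and 8 lower (median -0.18). Syt6 (1.54 ± 0.22), Crym (1.31 ± 0.15) and Deptor (0.63 ± 0.11) were higher, and Scnn1a (-1.71 ± 0.09), Rspo1 (-1.63 ± 0.20) and Lamp5 (-0.65 ± 0.14) lower. Piriform cortex against hippocampus gave 12 higher and 4 lower (median 0.56), led by Rspo1 at 3.18 ± 0.21 and Lamp5 at 2.30 ± 0.13.

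Within frontal cortex the factors varied widely between libraries. The coefficient of variation was 43.7% for Foxp2, 33.4% for Fezf2 and 30.9% for Etv1, against 16.2% for Cux1, 17.0% for Cux2 and 17.9% for Rorb. After centring on treatment and batch, Bcl11b, Tle4 and Foxp2 moved together, with Pearson's r of 0.89 for each of the 3 pairs over 28 libraries. Bcl11b and Etv1 (0.72), Etv1 and Tle4 (0.62) and Rorb and Tbr1 (0.61) also ran in parallel. Cux1 ran against Fezf2 (-0.78), and Cux2 ran against Foxp2 (-0.62) and Bcl11b (-0.60). These are the pairs of 0.60 or more in size among 36 and are given as a description, since the libraries of a pair share depth and dissection.

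The same factors moved with markers of neighbouring structures. In all relations with marker sums, values were not centred on treatment or batch, and libraries were permuted across both. The adjusted p therefore also takes in differences between these groups. Foxp2 rose with the striatal marker sum over 28 frontal libraries (Pearson's r = 0.77, Spearman's rho = 0.74, permutation test, adjusted p = 0.00018 for r over 36 relations, log2 scales), and without the 2 farthest libraries r was 0.74. The 3 libraries with the highest Foxp2, 30.7, 27.1 and 25.4 CPM, had striatal sums of 2211, 1433 and 1413 CPM. Tle4 (r = 0.49, rho = 0.52, adjusted p = 0.0196) and Bcl11b (r = 0.47, rho = 0.48, adjusted p = 0.0248) also rose with it, and Cux2 fell (r = -0.57, rho = -0.55, adjusted p = 0.00724). Without the 2 farthest libraries these were 0.52, 0.46 and -0.45. All kept their sign in each batch, Foxp2 at 0.68 and 0.83, Cux2 at -0.62 and -0.71, Tle4 at 0.38 and 0.51 and Bcl11b at 0.49 and 0.50.

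Cux1 rose with the olfactory bulb marker sum (r = 0.83, rho = 0.82, permutation test, adjusted p = 0.00018, 0.82 in batch 1 and 0.72 in batch 2, 0.79 without the 2 farthest). Fezf2 fell with it (r = -0.70, rho = -0.74, adjusted p = 0.00045, -0.63 and -0.67 within batches, -0.66 without the 2 farthest). Excision replicate 10, with a bulb sum of 677 CPM, had the lowest Fezf2 of frontal cortex, 8.24 CPM, and 110 CPM of Cux1. Excision replicate 2, with a bulb sum of 48.3 CPM, had 48.5 and 69.3 CPM. The highest bulb sum belonged to a burn library, and Fezf2 in burn libraries was not under 18.6 CPM. Tbr1 (r = -0.53, rho = -0.49, adjusted p = 0.0132, -0.64 without the 2 farthest) fell with the bulb sum. Rorb stood at the threshold, with an adjusted p of 0.0402 for r (-0.43) and 0.0574 for rho (-0.43). Within batches Rorb gave -0.31 and -0.15 and Tbr1 -0.32 and -0.51. Etv1 rose with it (r = 0.47, rho = 0.50, adjusted p = 0.0246), at 0.25 in batch 1 and 0.85 in batch 2, and r was 0.30 without the 2 farthest libraries.

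**Figure D3:**
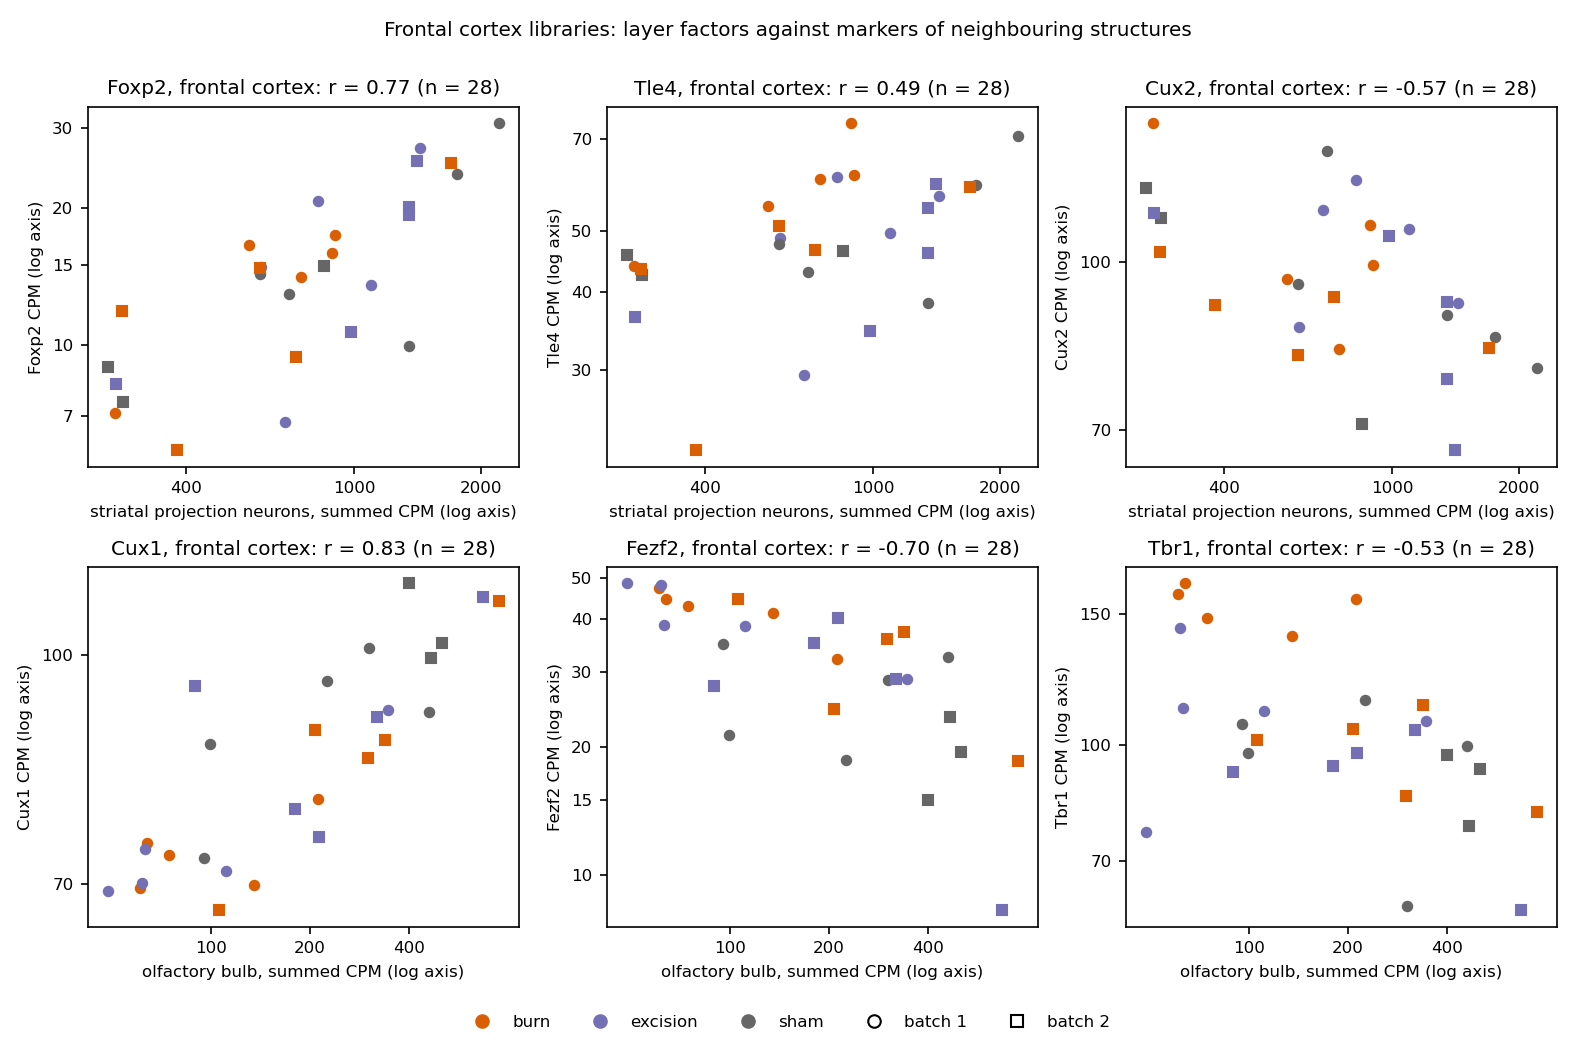
Each point is 1 of 28 frontal cortex libraries, with the CPM of a gene (vertical, log axis) against the summed CPM of 10 striatal (top row) or 5 olfactory bulb markers (bottom row, log axes). Colour gives treatment and symbol gives batch. Foxp2 and Tle4 climb and Cux2 descends with striatal markers, and Cux1 climbs while Fezf2 and Tbr1 descend with bulb markers.

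In piriform libraries 3 factors rose with the striatal markers. Foxp2 gave r = 0.86 (rho = 0.85, permutation test, adjusted p = 0.00045, n = 14), Tle4 0.78 (rho = 0.79, adjusted p = 0.00652) and Bcl11b 0.71 (rho = 0.65, adjusted p = 0.0143). Without the 2 farthest libraries they were 0.75, 0.74 and 0.53. Foxp2 was 17.7, 10.6, 11.2, 12.4 and 12.8 CPM in the burn libraries, 8.17, 6.50, 16.7 and 5.43 CPM in the excision libraries and 4.87, 7.95, 22.3, 11.5 and 7.15 CPM in the sham libraries. The sham library at 22.3 CPM had the highest striatal sum, 2319 CPM, and the sham library at 4.87 CPM the lowest, 252 CPM. For the remaining 6 factors in piriform cortex, r lay between -0.28 and 0.33, with Cux2 at -0.11 (adjusted p = 0.765).

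In hippocampus the markers of dentate granule cells moved with other factors. Cux2 (r = -0.61, rho = -0.57, permutation test, adjusted p = 0.00302) and Cux1 (r = -0.58, rho = -0.53, adjusted p = 0.00581) fell as the dentate sum rose, over 29 libraries. Bcl11b rose with it (r = 0.59, rho = 0.57, adjusted p = 0.00438). Without the 2 farthest libraries r was -0.48, -0.41 and 0.54. Within batches Cux2 gave -0.63 and -0.75, Cux1 -0.47 and -0.70 and Bcl11b 0.74 and 0.69. For Rorb (-0.50), Tbr1 (-0.47) and Foxp2 (-0.45) the relation weakened without the 2 farthest libraries, to -0.17, -0.22 and -0.27. Their adjusted p for rho in the permutation test was 0.184, 0.198 and 0.0932. Within batches Rorb gave -0.58 and -0.45, Tbr1 -0.54 and -0.41 and Foxp2 -0.48 and -0.39. All 36 relations were chosen after the data had been seen.

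**Figure D4:**
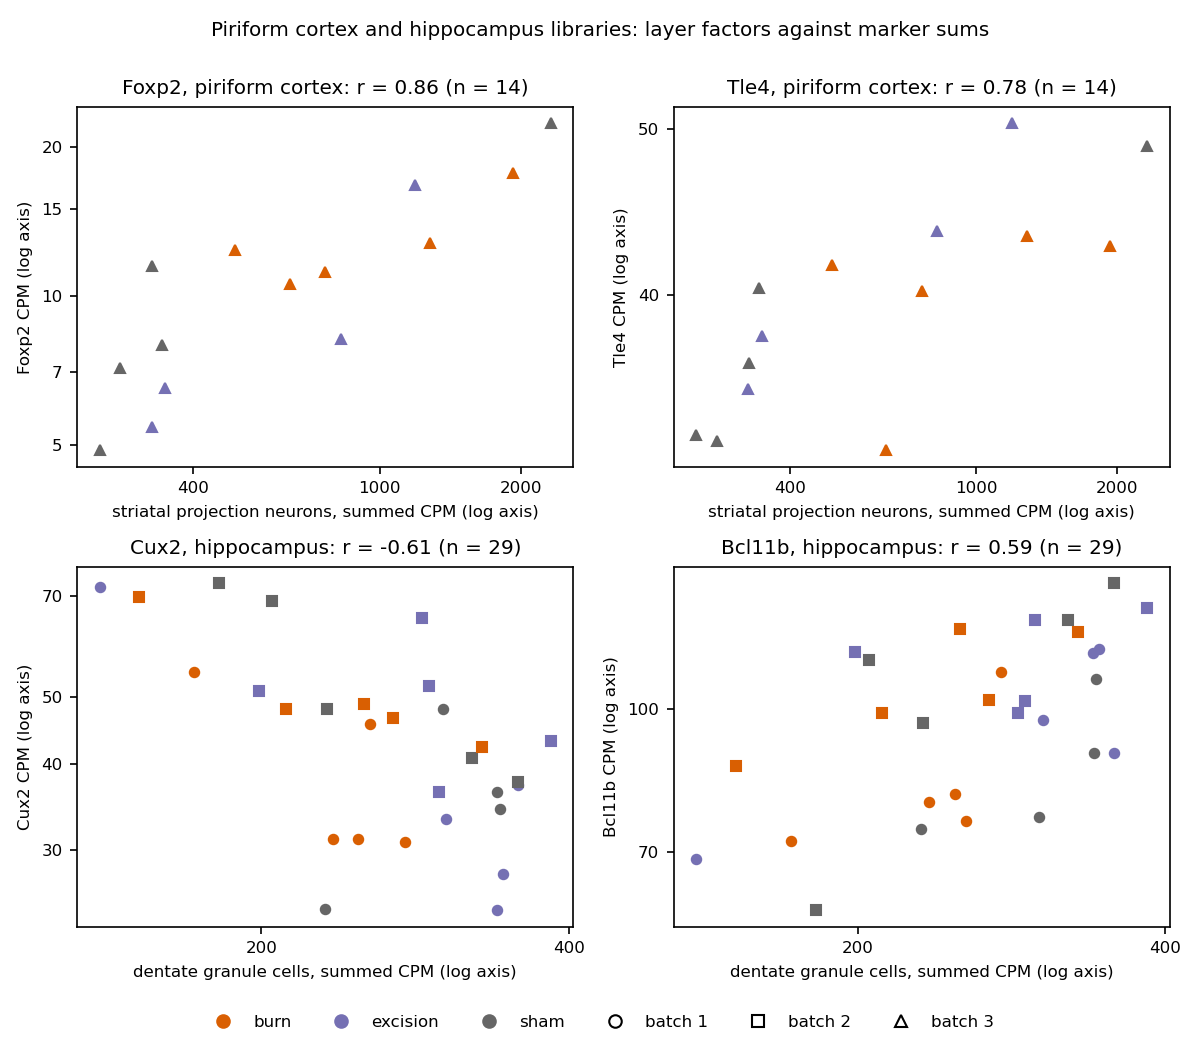
CPM (vertical, log axis) of Foxp2 and Tle4 against summed striatal markers in 14 piriform libraries (top), and of Cux2 and Bcl11b against summed dentate granule cell markers in 29 hippocampus libraries (bottom, log axes). Foxp2 climbs from 4.87 to 22.3 CPM as striatal markers go from 252 to 2319 CPM.

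Burn was then set against sham within each region, the comparison the study was built for. In frontal cortex 0 of the 9 factors passed edgeR's test, where 0.28% of 21077 genes did, and 3 had an unadjusted p under 0.05, as did 2741 of all genes: Tbr1, Fezf2 and Cux1. Tbr1 had 81.4 to 165 CPM in burn libraries (median 127) and 60.8 to 115 CPM in sham libraries (median 97.3), a log2 fold change of 0.44 ± 0.13 (adjusted p = 0.122). Fezf2 had 18.6 to 47.2 CPM in burn libraries (median 39.2) and 15.0 to 35.0 CPM in sham libraries (median 22.3), a log2 fold change of 0.67 ± 0.20 (adjusted p = 0.138). Cux1 had 67.2 to 109 CPM in burn libraries (median 77.3) and 73.0 to 112 CPM in sham libraries (median 97.9), a log2 fold change of -0.28 ± 0.08 (adjusted p = 0.135). The groups overlapped for all 3. The other 6 factors lay between -0.19 and 0.11.

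The 3 values depended on the test and the libraries. DESeq2's Wald test called Tbr1 (0.44, adjusted p = 0.0436) and Fezf2 (0.68, adjusted p = 0.0443), where it called 1.64% of all genes. Without excision replicate 10, a library outside the contrast that shares its estimate of spread, edgeR called Fezf2 (0.66, adjusted p = 0.0410), where 0.51% of genes were called. Over all alternatives adjusted p ran from 0.0281 to 0.858 for Tbr1, from 0.0410 to 0.819 for Fezf2 and from 0.0550 to 0.819 for Cux1. Bulb marker sums had medians of 171 CPM in burn and 353 CPM in sham libraries, with ranges of 60.8 to 757 and 94.8 to 506 CPM. With striatal and bulb sums as covariates, Fezf2 was 0.38 (adjusted p = 0.602), Cux1 -0.17 (0.489) and Tbr1 0.31 (0.477). These covariates were added after the data had been seen, and bulb medians differed between the groups. The fit therefore cannot tell treatment and tissue content apart, and the part of these transcripts in the burn values was not tested.

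The same contrasts were also taken batch by batch, and the difference between batches is tested directly below. In batch 1, Tbr1 averaged 154 ± 9.83 CPM in burn and 96.1 ± 20.9 CPM in sham libraries (SD, n = 5 each). In batch 2 it averaged 97.4 ± 13.5 CPM in burn (n = 5) and 89.3 ± 10.0 CPM in sham libraries (n = 3). Titles of burn replicates 7 and 8 of batch 2 name sham, and that of excision replicate 7 names burn, so these groups are less certain. All 5 burn libraries of batch 1, at 140 to 165 CPM, lay above the 5 sham libraries, at 60.8 to 115 CPM. Rorb separated in the same way, at 27.2 to 28.6 CPM in burn and 15.1 to 26.9 CPM in sham libraries of batch 1, and 7.57% of all genes separated upward there. In batch 2 Rorb averaged 19.9 ± 2.71 CPM in burn and 22.5 ± 2.94 CPM in sham libraries, which overlapped. Fits of single batches gave Tbr1 0.68 (adjusted p = 0.0281) in batch 1, where 6.5% of genes were called, and 0.14 (adjusted p = 0.858) in batch 2. Fezf2 was 0.61 and 0.76 in batches 1 and 2 (adjusted p = 0.0509 and 0.819), and Cux1 was -0.29 and -0.24 (0.0655 and 0.819).

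A direct test of the batch difference in the burn effect called 0 of the 9 factors, where it called 2.67% of all genes. An unadjusted p under 0.05 was found for 3 of the 9 and for 5515 of all 21788 genes. With treatment taken from the titles it called Etv1, where it called 17.2% of all genes. The 3 were Etv1 (0.79 ± 0.32, adjusted p = 0.117), Tbr1 (0.56 ± 0.25, adjusted p = 0.148) and Rorb (0.51 ± 0.24, adjusted p = 0.174). Etv1 averaged 80.0 ± 2.67 CPM in burn and 60.6 ± 13.3 CPM in sham libraries of batch 1, and 66.8 ± 25.8 CPM in burn and 87.4 ± 7.84 CPM in sham libraries of batch 2. Among the other layer genes this test called Neurod1 (1.06 ± 0.29, adjusted p = 0.0391) and Rasgrf2, an upper-layer exchange factor (0.70 ± 0.19, adjusted p = 0.0381). Bulb sums in batch 1 had medians of 74.4 CPM in burn and 225 CPM in sham libraries, and in batch 2 of 300.2 CPM in burn and 468 CPM in sham libraries. The part of bulb transcripts in these batch values was not tested.

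**Figure D5:**
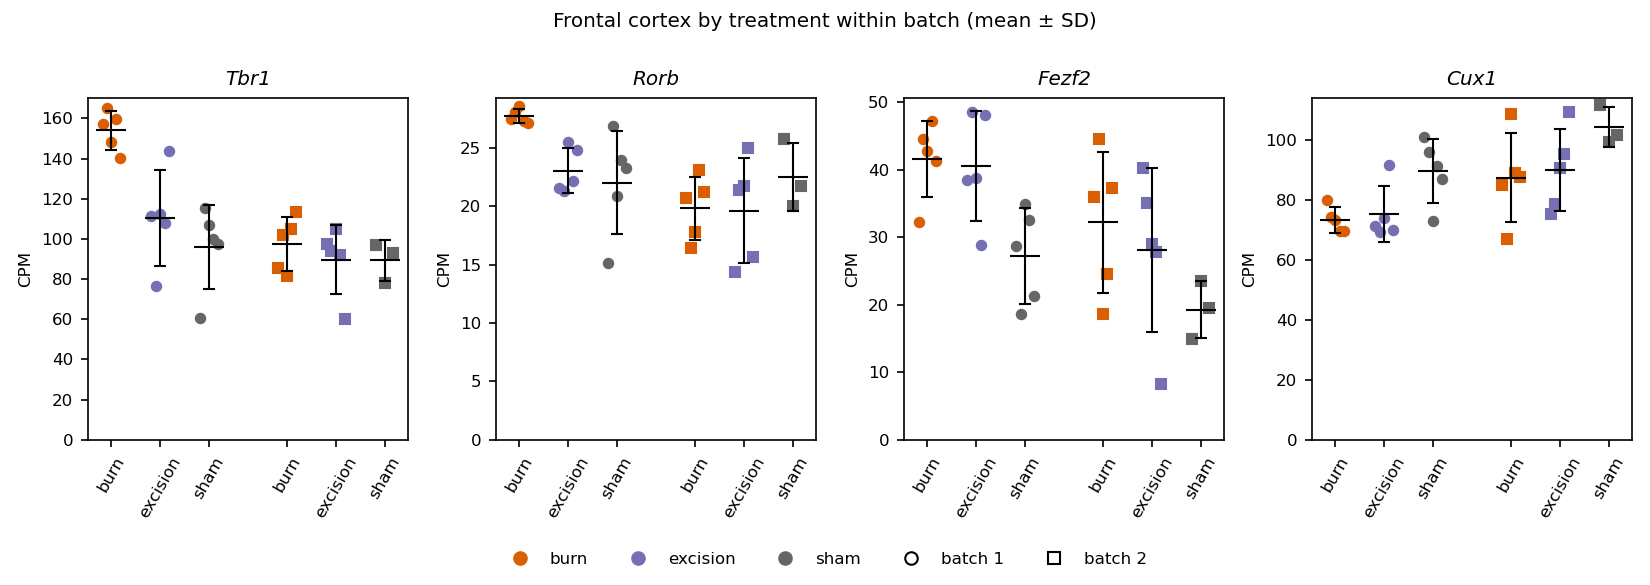
CPM of Tbr1, Rorb, Fezf2 and Cux1 in frontal cortex libraries by treatment, batch 1 on the left and batch 2 on the right of each panel, with mean and SD. Tbr1 in batch 1 stands at 140 to 165 CPM after burn and 60.8 to 115 CPM after sham, and in batch 2 the groups overlap.

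Excision against sham called 0 of the 9 in frontal cortex, and 0% of all genes, with 2 factors, and 1007 of all 21077 genes, at an unadjusted p under 0.05. Fezf2 averaged 34.3 ± 11.8 CPM after excision and 24.2 ± 7.10 CPM after sham (SD, n = 10 and 8, log2 fold change 0.55 ± 0.20, adjusted p = 0.951). Cux1 averaged 82.7 ± 13.5 CPM after excision and 95.3 ± 11.7 CPM after sham (-0.24 ± 0.08, adjusted p = 0.890). With marker covariates these were 0.24 and -0.11, and the part of marker transcripts in them was not tested. The burn contrast uses the same sham libraries, in which Fezf2 averaged 36.9 ± 9.35 CPM and Cux1 80.5 ± 12.7 CPM after burn. Burn against excision called 0 of the 9, where 0.209% of genes were called. Tbr1, among 2442 of all genes, had an unadjusted p under 0.05, at 126 ± 31.9 CPM after burn and 100.0 ± 22.5 CPM after excision (0.31 ± 0.12, adjusted p = 0.313), with single-batch values of 0.47 and 0.12.

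Piriform cortex gave 0 calls in each of its 3 contrasts, as did all genes (0%), and 0 factors had an unadjusted p under 0.05. Log2 fold changes of the 9 ran from 0.01 to 0.27 for burn against sham, from -0.23 to 0.26 for excision against sham and from -0.11 to 0.50 for burn against excision. Cux2 was 153, 171, 208, 203 and 146 CPM after burn, 157, 160, 167 and 134 CPM after excision and 106, 184, 136, 167 and 227 CPM after sham. The sham values spanned those of both other groups.

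In hippocampus 0 of the 9 were called after burn against sham, where 1.03% of 19574 genes were called, 0 after excision against sham (0% of genes) and 0 in burn against excision (0.209%). Etv1 was the only factor with an unadjusted p under 0.05, in burn against sham (3470 of all genes) and in excision against sham (727 of all genes). It had 58.0 to 103 CPM in burn libraries (median 78.9), 57.1 to 113 CPM in excision libraries (median 74.0) and 54.8 to 93.9 CPM in sham libraries (median 60.6). The fits gave 0.23 ± 0.10 for burn against sham (adjusted p = 0.212) and 0.22 ± 0.10 for excision against sham (adjusted p = 0.852). These contrasts share the sham libraries, and all 3 groups overlapped. Without burn replicate 1 the burn value was 0.15 (adjusted p = 0.350), and over all alternatives its adjusted p ran from 0.114 to 0.818.

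Tests of whether the injury effect differed between regions called 0 of the 9 in each of 4 comparisons, where 0% of all genes were called. For the burn effect in frontal cortex minus that in hippocampus, Cux1 gave -0.42 ± 0.14 (adjusted p = 0.373) and Fezf2 0.54 ± 0.21 (adjusted p = 0.449), both with unadjusted p under 0.05, as had 1882 of 21788 genes. For the excision effect in the same regions, Fezf2 (0.51 ± 0.21), Cux1 (-0.30 ± 0.14) and Etv1 (-0.47 ± 0.22) had unadjusted p under 0.05, with adjusted p of 0.530 to 0.532, where 2024 of all genes had an unadjusted p under 0.05. Against piriform cortex 0 of the 9 did so for burn or excision. The burn effect in hippocampus did not differ between batches for any of the 9 at an adjusted p under 0.05 (0.00918% of genes called), or at an unadjusted one. The 25 further layer factors and 18 effector genes gave 0 calls in all 9 treatment contrasts. In those of piriform cortex 24 of the 25 factors were tested. DESeq2's Wald test called 0 of the 9 in the other 8 treatment contrasts and in these tests of differences between regions or batches.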

How the data were processed

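Counts per gene and library were deposited by the authors as whole numbers in 1 table of 71 libraries. Tools listed in the submitters' processing notes are STAR, fastp, DESeq2 1.24.0 and FastQC 0.11.3, with build GRCm38. The sources used here do not state the read counter, its annotation or whether strand was used, so reads from antisense or overlapping genes may be included. Symbols, positions and exon lengths came from GENCODE M21 (52083 identifiers matched).

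Libraries were grouped by the treatment and tissue fields. Replicates were numbered in accession order, and nothing in the labels says that they are separate animals, so p-values measure the spread between libraries. None of 270 within-group pairs was identical (lowest chi-square per degree of freedom 4.36). Regions were compared in an edgeR 4.0.16 (R 4.3.3) quasi-likelihood fit of 15 region, treatment and batch means, after filterByExpr and TMM scaling (21788 genes). This fit treats libraries of different regions as independent. Treatments were compared in a fit per region with an additive batch term in frontal cortex and hippocampus. A gene was called at an adjusted p under 0.05 (Benjamini-Hochberg, over all genes tested). CPM used TMM factors over all libraries, and log2 CPM a prior count of 2. All 9 genes passed the filters and are named in every contrast. From the other lists, called genes were named from at most 5 per direction by p, and some are not reported here. Relations with marker sums used uncentred log2 values and 100000 permutations over all libraries of a region.

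The genes, lists and marker sets were chosen with earlier results of these data known. Alternatives were DESeq2 size factors, library totals, no filter, the DESeq2 1.42.0 Wald test, titles as labels, libraries with disagreeing labels or low depth left out, sham alone, single batches, no batch term, replicate blocks and each library left out. Marker covariates and the fit without 1 piriform library were added after the data had been seen. Scripts were tested on simulated counts.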

Additional observations from a re-analysis of the deposited data

Results flagged for a closer look

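The 81 groups of 4 to 10 libraries (9 genes in 9 region and treatment groups) were searched for a single library far from the rest of its group, and 6 were found. Chance alone flags about 1 in 20 groups.

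Fezf2 in frontal cortex excision replicate 10 was 8.24 CPM, against 27.8 to 48.5 CPM in the other 9 excision libraries. That library held 677 CPM of bulb markers and 1413 CPM of striatal markers, and the part of these transcripts in its Fezf2 value was not tested. Tle4 in frontal cortex burn replicate 6 was 22.4 CPM, against 43.4 to 74.1 CPM in the others, and the same library had the lowest Foxp2 (5.87 CPM) and Bcl11b (42.5 CPM) of frontal cortex. In piriform cortex Tle4 was 32.4 CPM in burn replicate 2, against 40.2 to 43.3 CPM in the others, and Etv1 was 28.7 CPM in sham replicate 5, against 38.5 to 42.4 CPM.

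Rorb in hippocampus burn replicate 9 was 25.1 CPM, against 11.1 to 15.5 CPM in the others, in a library with a dentate marker sum of 152 CPM, where the hippocampus median was 276 CPM. Tbr1 in hippocampus sham replicate 9 was 71.8 CPM, against 38.8 to 50.4 CPM, with a dentate sum of 205 CPM. The part of dentate content in these values was not tested.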

How the results depend on the processing

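Of 562 values for 35 single-gene results under alternatives, 539 kept their direction and side of the threshold, 13 lost a call, 5 gained one and 5 changed sign. The sign changes were all in frontal cortex against hippocampus: Bcl11b with sham libraries alone (0.0098) and batch 1 alone (0.0050), Etv1 with the same settings (0.11 and 0.0031), and Tle4 with batch 2 alone (-0.00087). Called factors in frontal cortex burn against sham numbered 0, but 2 with the DESeq2 Wald test, 1 with batch 1 alone and 0 to 1 with each library left out. Other treatment contrasts kept 0 throughout. Frontal against piriform cortex gave 8, and 3 with sham libraries alone. The batch difference of the frontal burn effect gave 0, and 1 (Etv1) with treatment taken from titles, where 17.2% of all genes were called. The cause of these changes was not tested. With library totals alone, 66.3% of calls in frontal against piriform cortex were higher (48.6% with TMM), and 37.2% in piriform cortex against hippocampus (50.7% with TMM); directions of the called factors were the same.

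Among 73 uncalled treatment values, 193 of 2390 alternatives changed sign, in 43 results of at most 0.28 in size, and 0 passed the threshold. Whether equal library numbers mark the same animal could not be decided. Over 27 frontal and hippocampus pairs of equal number, correlations ran from -0.36 to 0.43 (median 0.096). Of these, 13 were over 0.1. Each frontal library of a pair was set against the 4 or 5 hippocampus libraries of its own treatment and batch. For 7 frontal libraries the closest was the one of equal number. With so few candidates some matches come by chance alone, and their number was not computed. A low correlation between different tissues does not exclude a shared animal. With a replicate block by library number, 6 factors were called between frontal cortex and hippocampus (7 without), and with a replicate block by title number 0 in all 9 treatment contrasts. In hippocampus, counts of Foxp2 went down to 5 in batch 1 and to 43 in batch 2, and the part of depth in its values was not tested.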

Other observations

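For each factor, the genes (at most 3) whose centred log2 CPM ran closest to it over 28 frontal cortex libraries were taken from 15601 genes with a mean of at least 1 CPM. Bcl11b ran with Mctp1 (Pearson's r = 0.98), Rps6ka5 (0.96) and Arrdc3 (0.95), and Foxp2 with Mme (0.93), Spock3 (0.92) and Rps6ka5 (0.91). Etv1 ran with Dennd5b (0.97), Sema3d (0.96) and Rsbn1l (0.96), and Tle4 with Akap9 (0.94), Dcc (0.94) and Strn (0.93). Fezf2 ran with Gm19410 (0.95), Zdhhc22 (0.92) and Ramp3 (0.91). Tbr1 ran with Pgm2l1 (0.93) and Bhlhe22 (0.89). The upper-layer factors had weaker neighbours: Cux1 with Lbh (0.86), Paqr6 (0.85) and Gm45623 (0.84), Cux2 with Car10, Rgs6 and Lasp1 (0.83 each), and Rorb with Snap25 (0.82), Rnf170 (0.81) and Mal2 (0.80). These correlations are a description of libraries that share depth and dissection.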
